A study of Mus musculus with 11 samples.

Results

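A set of 42 skeletal muscle genes was followed through 11 RNA sequencing libraries of sorted mouse colon macrophages. The genes encode parts of the sarcomere, of calcium handling and of muscle energy metabolism, and were matched by gene symbol. All 42 were listed once among the 23282 entries of each count file. The set was proposed after 2 of its genes, Tnnc2 and Pvalb, had stood out among all genes of these libraries. They were low in the libraries labelled knockout at day 39 against wild type at day 39 and against knockout at day 0. Values in those comparisons are therefore given below as a description.

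The libraries came from wild type mice (strain label WT) or from the strain Csf1r-EP4-/-, written KO below. EP4 is a receptor of prostaglandin E2, encoded by Ptger4, and Csf1r is the receptor gene of a macrophage growth factor. The allele, the driver of the deletion, the age of the animals and any pooling of mice are not given in the sources used here. The protocol gave 2.5% dextran sodium sulphate (DSS) in the drinking water for 5 days, an agent that injures the colon lining. The titles place each library at day 0 or day 39 of DSS, while the deposited file names give a different late day. There were 3 libraries of day 0 KO, 2 of day 0 WT, 3 of day 39 KO and 3 of day 39 WT, all carrying the sort label CD45+CD11b+Ly6G-Ly6C-MHCII+CD64+. The sources do not say whether libraries of a group came from separate mice, so p-values measure the spread between libraries, which may be technical.

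Library totals ran from 4003299 to 14207919 counts, the deepest being day 0 KO replicate 3. Counts of H2-Ab1, of MHC class II, were 12803 to 70551 and those of Csf1r 1329 to 12197, in every library. Ptprc, the CD45 gene, had 0 to 2407 counts and Itgam, the CD11b gene, 0 to 3336. Fcgr1, the CD64 gene, had 0 to 2063 counts and was at 0 in 4 libraries, so of the positive markers of the sort the gene of MHC class II alone was counted throughout. The Ly6C genes Ly6c1 and Ly6c2 reached 2323 counts in day 0 KO replicate 2 and 2100 in day 39 KO replicate 1. Ptger4 had 1350, 0 and 890 counts in day 0 KO, 0 and 0 in day 0 WT, 1, 8 and 4501 in day 39 KO, and 1481, 152 and 7286 in day 39 WT. These counts go against the label in 3 KO libraries, and both day 0 WT libraries were at 0. The deleted part of Ptger4 is not given, so reads near the transcript end may not check it. KO and WT below always mean libraries labelled so. In these bulk libraries, fewer cells of a type and less RNA per cell cannot be told apart.

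Skeletal muscle fibres contract when calcium released from the sarcoplasmic reticulum binds troponin on the thin filament and lets myosin heads pull on actin. Fast fibres use their own isoforms of myosin, troponin and the calcium pump, and make parvalbumin, while slow fibres share many isoforms with the heart. Smooth muscle of the gut wall contracts without troponin and uses other actin and myosin genes. Macrophages are not known for making sarcomeres.

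Muscle transcripts were counted in every one of the 11 libraries, at levels that differed widely between replicates. The summed level of the 42 genes, in CPM (counts per 1000000) scaled by edgeR's TMM method, was 4312, 36496 and 32164 in replicates 1 to 3 of day 0 KO. It was 4864 and 17924 in day 0 WT, 9708, 5849 and 10006 in day 39 KO, and 6019, 24895 and 12981 in day 39 WT. The highest library was 8.46-fold above the lowest, and both were day 0 KO. The group means were 24324 CPM ± 17466 (SD, n = 3) in day 0 KO and 11394 CPM ± 9235 (n = 2) in day 0 WT. They were 8521 CPM ± 2319 (n = 3) in day 39 KO and 14632 CPM ± 9545 (n = 3) in day 39 WT. With upper-quartile scaling the order at day 0 turned, to 18284 CPM in KO and 43198 CPM in WT, while the day 39 means were 6514 CPM in KO and 13764 CPM in WT. On the TMM scale the groups overlapped in every pairing, and the spread within day 0 KO, day 0 WT and day 39 WT was of the size of the differences between groups.

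**Figure D1:**
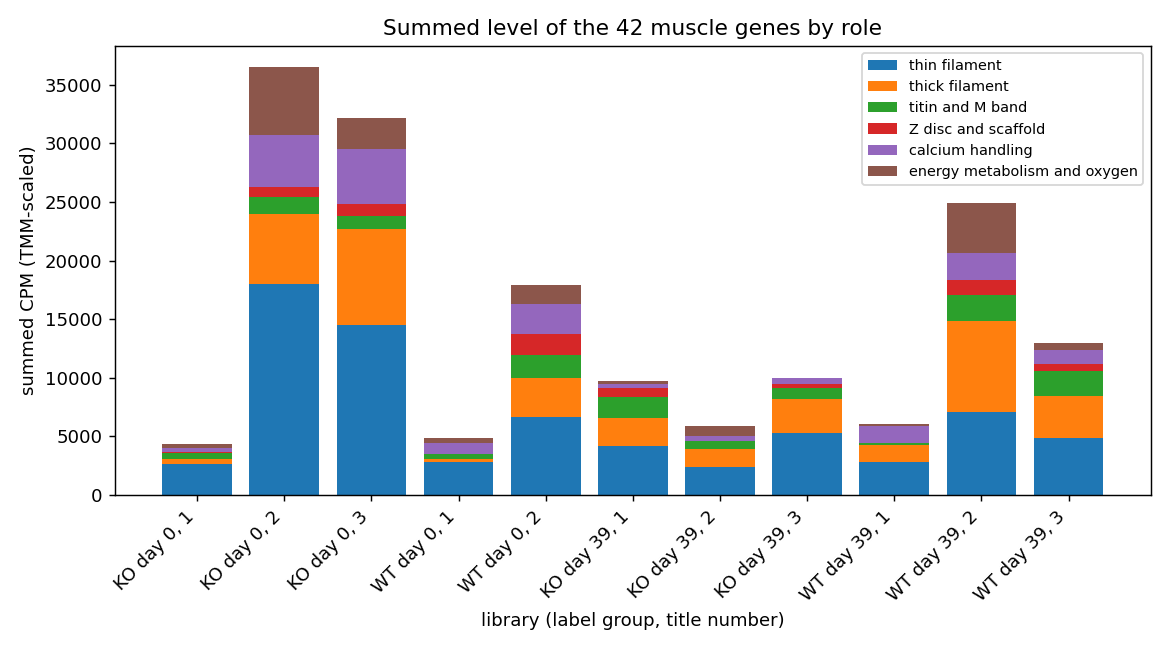
Summed CPM of the 42 muscle genes (y axis, TMM-scaled) in each of the 11 libraries (x axis, label group and title number), stacked by the role of the gene. Day 0 KO replicates 2 and 3 and day 39 WT replicate 2 stand highest, at 36496, 32164 and 24895 CPM.

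The number of the 42 genes with at least 100 counts was 10, 24 and 35 in day 0 KO, 17 and 19 in day 0 WT, 15, 16 and 14 in day 39 KO, and 12, 24 and 21 in day 39 WT. The deepest library, day 0 KO replicate 3, thus held the most of them, and the part played by depth was not tested. Day 0 KO replicate 3 was also the library with the highest CPM for 11 genes, replicate 2 for 9 and day 39 WT replicate 2 for 7. Only 5 genes, Acta1, Tpm1, Mylpf, Ttn and Atp2a1, had at least 100 counts in all 11 libraries. That is 11.9% of the 42, and 1.08% of all entries of the files met the same minimum. In contrast, Myoz1, Cacna1s and Jph1 each had at least 1000 counts in day 0 KO replicate 3 and 10 or fewer in each of the other 10 libraries. Actn2 and Sln had 0 counts throughout, and Myot, Nrap and Klhl41 never reached 100. For Actn2, the alpha-actinin that slow and fast fibres share, and for Sln, a small inhibitor of the calcium pump, 0 of 65904340 counts allows a level of up to 0.0455 CPM.

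**Figure D2:**
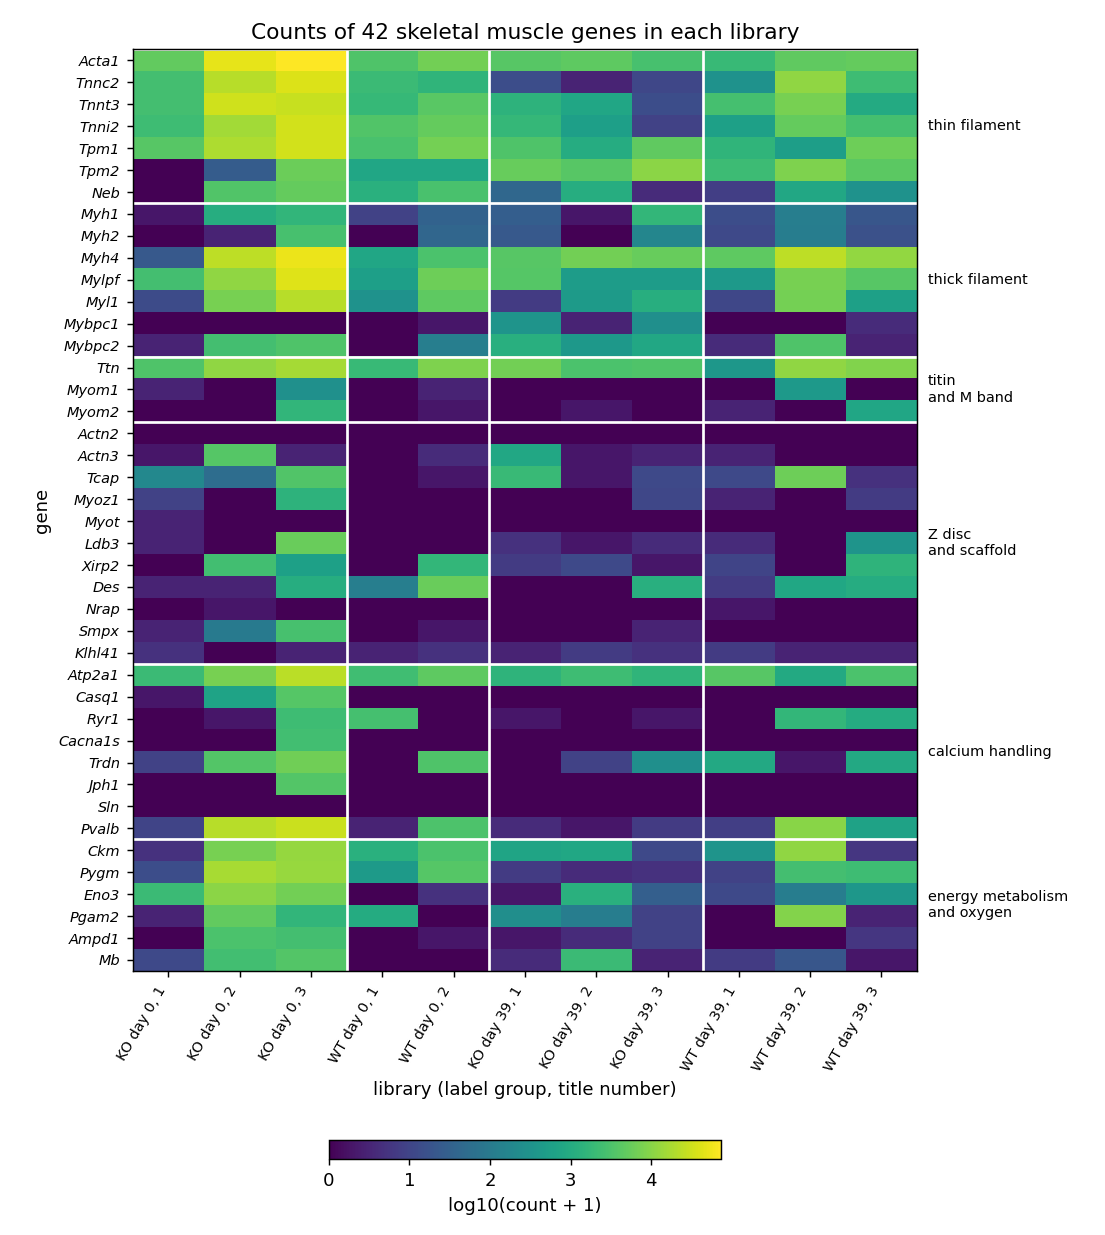
Counts of the 42 muscle genes (rows, grouped by role) in the 11 libraries (columns), coloured by log10(count + 1). Acta1, Tpm1, Mylpf, Ttn and Atp2a1 are filled across all 11 columns, while Myoz1, Cacna1s and Jph1 reach 1000 counts in day 0 KO replicate 3 alone.

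Thin filament genes made the largest part of the mean summed level in each label group. They averaged 11715 CPM ± 8058 (SD, n = 3) in day 0 KO and 4734 CPM ± 2726 (n = 2) in day 0 WT. At day 39 they averaged 3924 CPM ± 1453 (n = 3) in KO and 4899 CPM ± 2162 (n = 3) in WT. Thick filament genes came near in day 39 WT, at 4289 CPM ± 3184 (n = 3). Acta1, the actin of skeletal muscle, had 4935, 48708 and 73541 counts in day 0 KO and 3345 and 6665 in day 0 WT. At day 39 it had 4007, 4502 and 2877 counts in KO and 1915, 4767 and 5168 in WT. Acta1 was therefore present in all libraries, with day 0 KO replicates 2 and 3 far above the others and the day 39 groups overlapping. Its level was 3956 CPM ± 2834 (n = 3) in day 0 KO, 1084 CPM ± 688 (n = 2) in day 0 WT, 918 CPM ± 107 (n = 3) in day 39 KO and 863 CPM ± 276 (n = 3) in day 39 WT.

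The fast troponin subunits differed from Acta1 in the day 39 KO libraries. Tnnc2, the calcium-binding subunit of fast troponin, had 2628, 21683 and 41046 counts in day 0 KO, 2095 and 1521 in day 0 WT, 13, 2 and 10 in day 39 KO, and 307, 11461 and 2223 in day 39 WT. Its level was 1966 CPM ± 1337 (SD, n = 3) in day 0 KO, 366 CPM ± 11.2 (n = 2) in day 0 WT, 2.21 CPM ± 1.59 (n = 3) in day 39 KO and 896 CPM ± 1068 (n = 3) in day 39 WT. The 3 libraries of day 39 KO lay below all 8 other libraries, which is the pattern that brought the gene into view. Tnnt3, the tropomyosin-binding subunit, had 2543, 32587 and 29016 counts in day 0 KO, 1795 and 4123 in day 0 WT, 1385, 742 and 13 in day 39 KO, and 2679, 7237 and 925 in day 39 WT, and the day 39 groups overlapped. Tnni2, the inhibitory subunit, had 1775, 563 and 8 counts in day 39 KO and 594, 5301 and 2709 in day 39 WT, also with overlap. Day 39 KO replicate 3 was thus near the floor for all 3 subunits, and replicates 1 and 2 for Tnnc2 alone.

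The tropomyosins lie along actin and gate access of myosin. Tpm1 had 4044, 18273 and 33548 counts in day 0 KO, 2981 and 7130 in day 0 WT, 3370, 1044 and 4688 in day 39 KO, and 1516, 541 and 6221 in day 39 WT. Tpm2 had 0, 25 and 5881 counts in day 0 KO, 755 and 745 in day 0 WT, 5504, 4034 and 10598 in day 39 KO, and 2136, 8484 and 4445 in day 39 WT. Tpm2 stood higher in CPM in every day 39 library than in every day 0 library on the TMM scale, and overlapped over time in WT with upper-quartile scaling. In WT its log2 fold change was 2.77 ± 1.62 (SE), and it did not pass (adjusted p = 0.414, edgeR). Smooth muscle and other cells also express both tropomyosins. Neb, the giant ruler protein of the thin filament, had 0, 3516 and 5212 counts in day 0 KO, 1242 and 2937 in day 0 WT, and 3 to 1087 in the day 39 libraries.

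**Figure D3:**
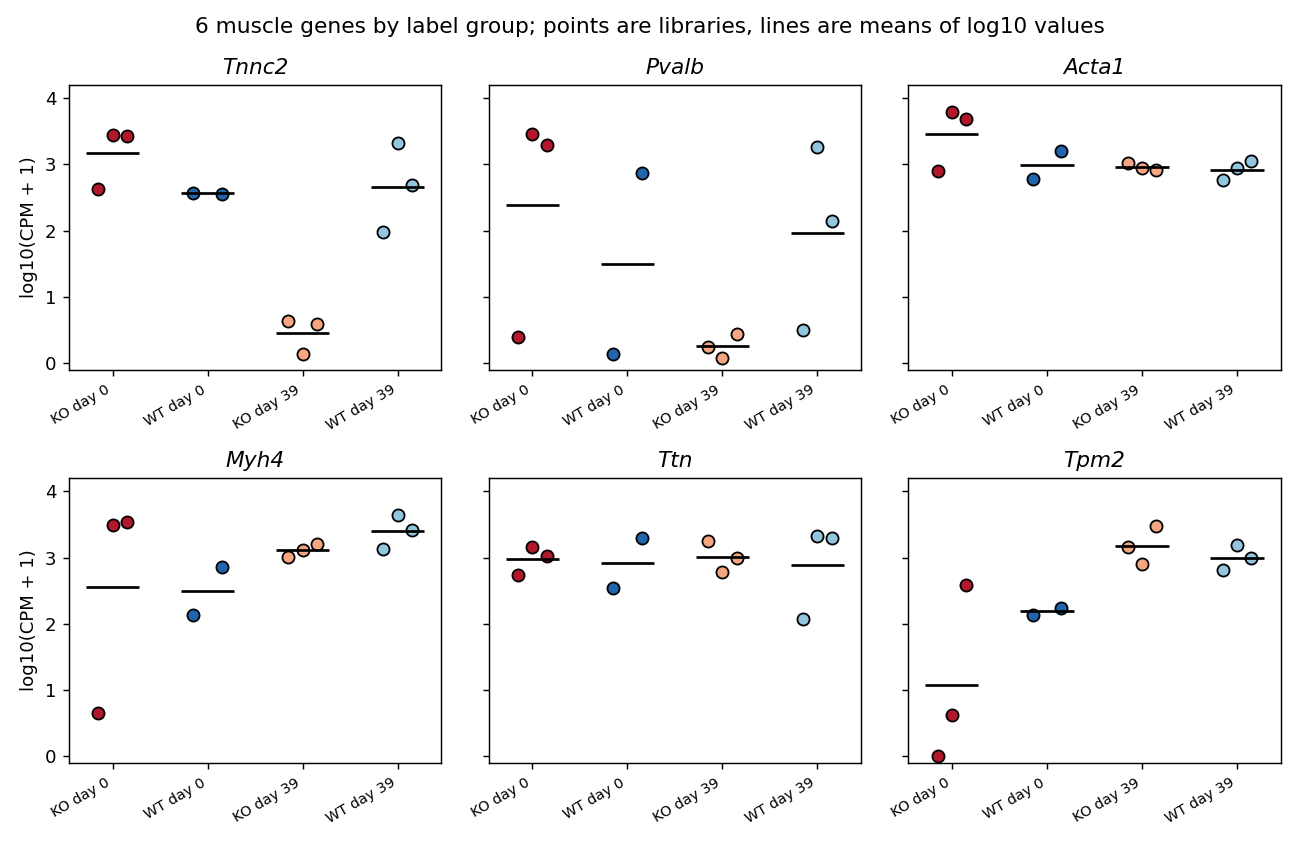
Level of 6 muscle genes as log10(CPM + 1) (y axis) in the 4 label groups (x axis). Each point is a library and each line the mean of the log10 values of a group. Tnnc2 and Pvalb are lowest in day 39 KO, at 2.21 and 0.901 CPM on average, whereas Acta1, Myh4, Ttn and Tpm2 are not low there.

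Among thick filament genes, Myh4, the fast type IIB myosin heavy chain, had 22, 24416 and 52590 counts in day 0 KO, 764 and 3061 in day 0 WT, 3978, 6690 and 5482 in day 39 KO, and 4480, 24155 and 11901 in day 39 WT. Day 0 KO replicate 1 was the exception among otherwise well-covered libraries. The related type IIX gene Myh1 had 1 to 1663 counts and the type IIA gene Myh2 0 to 2781, each below 200 counts in most libraries. Mylpf, the regulatory light chain of fast myosin, had 2590, 11263 and 42275 counts in day 0 KO, 555 and 6126 in day 0 WT, 3786, 485 and 496 in day 39 KO, and 432, 7511 and 3939 in day 39 WT. Myl1, the essential light chain, was less even, with 6, 448 and 1127 counts in day 39 KO and 10, 6931 and 585 in day 39 WT. In day 0 KO it had 12, 7277 and 21965 counts and in day 0 WT 295 and 4542, so it was low in day 0 KO replicate 1, where Mylpf was not. The myosin-binding protein genes parted: Mybpc2, of fast fibres, reached 3357 counts, while Mybpc1, of slow fibres, had 331, 2 and 266 counts in day 39 KO and at most 3 in any other library.

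Start-site windows of 300 bases, 250 before and 50 after the start, were available from RefSeq (GRCm38.p6) for 30 of the 42 genes, as 34 windows. Windows are shown for Tnnc2 and Pvalb, which had 13 or fewer counts in each day 39 KO library, and for Mylpf and Myh4, which had at least 485 there. Capitals mark matches on either strand to CANNTG, the E-box that myogenic factors bind, and to the MEF2 site. The windows are chr2:164779685-164779984 (minus strand), chr15:78206351-78206650 (minus), chr7:127211358-127211657 (plus) and chr11:67237562-67237861 (plus), each printed 5′ to 3′ along the gene.
Tnnc2: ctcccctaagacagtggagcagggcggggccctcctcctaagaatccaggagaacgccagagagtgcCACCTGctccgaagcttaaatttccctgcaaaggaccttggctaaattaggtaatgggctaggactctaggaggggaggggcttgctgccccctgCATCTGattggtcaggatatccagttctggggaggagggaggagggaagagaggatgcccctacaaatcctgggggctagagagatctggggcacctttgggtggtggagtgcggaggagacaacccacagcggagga
Pvalb: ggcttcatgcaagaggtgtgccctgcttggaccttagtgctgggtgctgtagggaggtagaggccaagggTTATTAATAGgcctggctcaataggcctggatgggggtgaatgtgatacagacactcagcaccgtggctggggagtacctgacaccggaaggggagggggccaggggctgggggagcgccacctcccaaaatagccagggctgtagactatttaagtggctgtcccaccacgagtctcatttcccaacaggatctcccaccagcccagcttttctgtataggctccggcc
Mylpf: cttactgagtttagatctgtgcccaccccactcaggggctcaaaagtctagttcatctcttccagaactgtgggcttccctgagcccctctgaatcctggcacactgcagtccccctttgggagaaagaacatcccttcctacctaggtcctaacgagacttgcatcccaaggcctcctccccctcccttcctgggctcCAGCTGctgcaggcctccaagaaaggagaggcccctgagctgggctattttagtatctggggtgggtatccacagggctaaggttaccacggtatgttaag
Myh4: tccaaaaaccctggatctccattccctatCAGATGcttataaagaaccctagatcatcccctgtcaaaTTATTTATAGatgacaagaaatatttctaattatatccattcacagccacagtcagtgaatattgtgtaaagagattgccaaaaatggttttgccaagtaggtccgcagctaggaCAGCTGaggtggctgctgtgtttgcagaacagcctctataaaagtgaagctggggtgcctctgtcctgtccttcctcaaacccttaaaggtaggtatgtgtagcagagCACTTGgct
Pvalb has a second window with 2 E-box matches and no MEF2 match, not shown.

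The E-box letters were found in 79.4% of the 34 windows and in 72.3% of all 32851 windows of the table. The MEF2 site was found in 20.6% of the 34 windows against 3.19% of all, in Klhl41, Myh1, Myh4, Pgam2, Pvalb, Ttn and Xirp2. The CArG box, which serum response factor binds, was found in 14.7% against 1.63%, in Acta1, Ldb3, Myh4 and Myom1. MCAT letters (CATTCC), bound by TEAD factors, were in 29.4% against 14.7%, and TATAAA in 14.7% against 13.6%. Each motif was searched on both strands, and in Myh4 a TATAAA match overlaps the MEF2 match. Matches describe letters in the window and are not shown to be bound sites.

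Ttn, the giant spring that spans the sarcomere from Z disc to M band, was the most even of the abundant genes across groups. It had 3432, 11396 and 16053 counts in day 0 KO, 1928 and 8507 in day 0 WT, 6852, 3041 and 3399 in day 39 KO, and 382, 11360 and 8963 in day 39 WT. Its group means lay between 1022 CPM ± 458 (SD, n = 3) in day 0 KO and 1389 CPM ± 1105 (n = 3) in day 39 WT. The M-band genes were sparse by comparison, Myom2 having 1620 counts in day 0 KO replicate 3, 742 in day 39 WT replicate 3 and at most 2 elsewhere. Myom1 had 275 counts in the first of these libraries, 426 in day 39 WT replicate 2 and at most 2 elsewhere.

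The Z disc group, whose proteins anchor actin at the sarcomere border, was the most thinly covered. Des, the muscle intermediate filament that smooth muscle also uses, had 2, 2 and 1083 counts in day 0 KO, 121 and 5723 in day 0 WT, 0, 0 and 1168 in day 39 KO, and 6, 805 and 1038 in day 39 WT. Tcap, the titin cap, had 190, 53 and 3570 counts in day 0 KO, 0 and 1 in day 0 WT, 2004, 1 and 11 in day 39 KO, and 11, 6212 and 4 in day 39 WT. Its high libraries were therefore single members of a group. Xirp2, an actin-binding repeat protein, had 0, 2523 and 584 counts in day 0 KO, 0 and 1692 in day 0 WT, 6, 11 and 1 in day 39 KO, and 9, 0 and 1472 in day 39 WT. Actn3, the alpha-actinin of fast fibres, had 3759 counts in day 0 KO replicate 2, 837 in day 39 KO replicate 1 and at most 3 elsewhere. Ldb3 and Smpx had their highest counts, 5669 and 2814, in day 0 KO replicate 3.

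In the calcium handling group, Atp2a1, the calcium pump of fast fibres, was covered throughout. It had 2104, 7413 and 23109 counts in day 0 KO, 2413 and 4498 in day 0 WT, 1464, 2312 and 1542 in day 39 KO, and 4090, 896 and 3072 in day 39 WT. Pvalb, the calcium buffer parvalbumin, had 9, 22465 and 30153 counts in day 0 KO, 2 and 3149 in day 0 WT, 3, 1 and 6 in day 39 KO, and 7, 9888 and 624 in day 39 WT. Its CPM in day 39 KO lay below that in day 39 WT, though only narrowly below day 39 WT replicate 1 (1.73 against 2.12 CPM), and it overlapped both day 0 groups. Low Pvalb was thus seen in 6 of the 11 libraries, from each of the 4 groups, while Tnnc2 was at 13 counts or fewer in day 39 KO alone. Trdn, which ties calsequestrin to the release channel, had 8, 3588 and 6342 counts in day 0 KO, 0 and 3347 in day 0 WT, 0, 8 and 266 in day 39 KO, and 846, 1 and 858 in day 39 WT, so day 0 KO replicates 2 and 3 and day 0 WT replicate 2 were high. Casq1, the calcium store protein, had 1, 658 and 3827 counts in day 0 KO and 0 in all 8 other libraries. Ryr1, the release channel, had 0, 1 and 2227 counts in day 0 KO, 2756 and 0 in day 0 WT, 1, 0 and 1 in day 39 KO, and 0, 1695 and 997 in day 39 WT.

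Of the metabolic genes, Ckm, the muscle creatine kinase, had 4, 7295 and 12283 counts in day 0 KO, 1253 and 3071 in day 0 WT, 684, 775 and 11 in day 39 KO, and 334, 11422 and 5 in day 39 WT. Pygm, the muscle glycogen phosphorylase, had 13, 16647 and 13229 counts in day 0 KO, 441 and 3874 in day 0 WT, 6, 3 and 4 in day 39 KO, and 8, 2530 and 2314 in day 39 WT. Pygm was thus another gene near the floor in all 3 day 39 KO libraries, next to single low libraries in day 0 KO and day 39 WT. Pgam2, a phosphoglycerate mutase of muscle, had 2, 5056 and 1621 counts in day 0 KO, 981 and 0 in day 0 WT, 253, 116 and 8 in day 39 KO, and 0, 9189 and 2 in day 39 WT, with single high libraries in several groups. Eno3, the muscle enolase, had 2031, 10714 and 6828 counts in day 0 KO but 0 and 4 in day 0 WT, 1, 1247 and 29 in day 39 KO, and 11, 114 and 368 in day 39 WT. Mb, the oxygen store myoglobin, had 11, 2505 and 3681 counts in day 0 KO, 0 and 0 in day 0 WT, 3, 2087 and 2 in day 39 KO, and 6, 19 and 1 in day 39 WT. Ampd1 had 3023 and 2629 counts in day 0 KO replicates 2 and 3 and at most 8 elsewhere.

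Of the 42 genes, 35 passed the filter on low counts and were tested by edgeR's quasi-likelihood test across 6987 genes with Benjamini-Hochberg adjustment. Actn2, Myot, Nrap, Klhl41, Cacna1s, Jph1 and Sln did not pass. Counts over the 35 are a description, since a gene could pass through the group in which it was high. KO was compared with WT at day 0, and day 39 with day 0 in WT, neither of which had drawn attention to the set, although both share libraries with comparisons that had.

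At day 0, none of the 35 genes passed between KO and WT (edgeR, smallest adjusted p = 0.381), while 0.0143% of all tested genes did. At an unadjusted p under 0.05 there were 2, Myh4 and Eno3, and 558 of all genes. DESeq2 called 4, Casq1, Eno3, Mb and Ampd1, where it called 29.3% of all genes with an adjusted p, and limma-voom called Eno3 and Mb, 2 of the 35, against 2.38% of all. Myh4 stood 2.36 ± 1.10 (SE) higher in KO on the log2 scale (adjusted p = 0.381, edgeR), Acta1 1.87 ± 1.08, Tnnc2 2.42 ± 1.58, Pvalb 2.13 ± 1.73 and Tnnt3 1.75 ± 1.43. Mylpf was at 1.0 ± 1.45, Tpm1 at 0.65 ± 1.30 and Ttn at -0.20 ± 1.22. The Pvalb value was 12.18 without day 0 WT replicate 2 and 0.98 without day 0 WT replicate 1. With limma-voom Pvalb was at 4.63, Mylpf at 2.32, Tpm1 at 1.03 and Myh4 at 1.26. The median over the 35 was 1.87 and that over all tested genes 1.08. With upper-quartile scaling these medians were -0.39 and 0, and 16 of the 35 were higher in KO in place of 27. The CPM of the groups did not overlap, with KO higher, for 6 of the 35 (17.1%), against 6.73% of all tested genes. The 6 were Tnnc2, Tcap, Smpx, Casq1, Eno3 and Mb. Tnnc2 overlapped under each of the 3 other scalings, and Smpx and Casq1 were apart by 2 counts against 1 and 1 count against 0 in their nearest libraries, below the floor of 3 counts. None was lower without overlap, against 5.25% of all.

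Between day 39 and day 0 in WT, none of the 35 passed (edgeR, smallest adjusted p = 0.414), against 0.0143% of all tested genes. At an unadjusted p under 0.05 there were 2, Myh4 and Tcap, and 467 of all. DESeq2 and limma-voom called 0 of the 35 as well, where they called 27.8% and 2.35% of all genes. Myh4 stood 2.71 ± 1.12 (SE) higher at day 39 on the log2 scale (adjusted p = 0.414, edgeR), standing at 429 CPM ± 413 (SD, n = 2) at day 0 and 2803 CPM ± 1551 (n = 3) at day 39. The Myh4 value was 0.62 with upper-quartile scaling, 1.75 without day 0 WT replicate 1 and 4.41 without day 0 WT replicate 2. With limma-voom Pvalb was at 2.86, Mylpf at 0.93, Ttn at 0.37, Tnnc2 at 0.60, Acta1 at -0.082 and Tpm1 at -1.26. Tnnc2 was at 1.29 ± 1.5, Pvalb at 0.81 ± 1.63, Tnnt3 at 0.28 ± 1.35, Ttn at 0.24 ± 1.23, Mylpf at 0.04 ± 1.40, Acta1 at -0.33 ± 1.0 and Tpm1 at -0.79 ± 1.26. The median over the 35 was 0.63, below the 1.64 of all tested genes. With upper-quartile scaling they were -1.19 and 0.48, so the sign of the median turned with the scaling while its position below that of all genes stayed. Tpm2, Myh4, Tcap, Eno3 and Mb were higher at day 39 without overlap, 14.3% of the 35 against 12.7% of all tested genes. With upper-quartile scaling Mb alone did not overlap. Its nearest libraries were apart by 1 count against 0, below the floor of 3 counts, and a gap against 0 stays under any scaling. Those of Tcap were apart by 4 counts against 1. Neb was lower without overlap, against 4.72% of all.

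In the comparisons that had drawn attention to the set, Tnnc2 and Pvalb were 2 of the 35 past the threshold between KO and WT at day 39. They were also the only 2 of all tested genes (0.0286%), so this share sets them against no other called gene. Both genes were lower in KO, with log2 fold changes of -8.65 ± 1.79 (SE) for Tnnc2 and -9.48 ± 2.06 for Pvalb. Without day 39 KO replicate 1, without day 39 KO replicate 2 or without day 39 WT replicate 2, 0 of the set passed. The count was also 0 with upper-quartile scaling, other filters, limma-voom, the replicate number as a block or a fit of the day 39 groups alone. It was 4 by DESeq2, which called 13.1% of all genes with an adjusted p, against 0.458% by limma-voom. The other named genes had values near 0 or with wide errors, at 0.09 ± 0.90 for Acta1, -0.31 ± 1.09 for Ttn, 0.34 ± 1.15 for Tpm1, -0.96 ± 1.26 for Mylpf, -1.10 ± 0.90 for Myh4 and -2.21 ± 1.26 for Tnnt3. The median over the 35 was -0.70 and that over all tested genes 0. Tnnc2, Pvalb and Pygm were lower in KO without overlap, against 3.99% of all tested genes, and none was higher, against 3.41%. In their nearest libraries Pvalb was apart by only 1.73 against 2.12 CPM and Pygm by 1.55 against 2.43 CPM.

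Between day 39 and day 0 in KO, the same 2 genes were past the threshold, where 0.157% of all tested genes were, and both were lower at day 39. Tnnc2 had a log2 fold change of -9.79 ± 1.87 (SE) and Pvalb -10.79 ± 2.16. Without day 0 KO replicate 2, Tnnc2 passed and Pvalb did not. The same held with the replicate number as a block and with a fit of the KO groups alone. With upper-quartile scaling or no filter neither gene passed. DESeq2 called 7 of the set and limma-voom 2, where they called 27.0% and 2.76% of all genes. Tnnt3 was at -3.68 ± 1.34, Acta1 at -2.11 ± 0.94, Mylpf at -1.93 ± 1.30, Tpm1 at -1.10 ± 1.16, Myh4 at -0.74 ± 0.90 and Ttn at 0.13 ± 1.09. The median over the 35 was -2.52 and that over all tested genes 0. Lower without overlap were Tnnc2, Tnnt3, Casq1, Pygm and Eno3, against 3.21% of all tested genes. In their nearest libraries Casq1 was apart by 0 counts against 1, below the floor of 3 counts, and Pygm by 1.55 against 2.09 CPM. Tpm2 and Mybpc1 were higher without overlap, against 8.07%, and Mybpc1 was apart by 2 counts against 0, also below the floor. This comparison shares its day 39 KO libraries with the one at day 39.

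The interaction of day and genotype is built from the comparisons that had drawn attention to the set, so its counts are a description. It had 0 of the 35 past the threshold (edgeR) and 0% of all tested genes. At an unadjusted p under 0.05 there were 7 of the 35 and 1006 of all. DESeq2 called 4 of the set in the interaction, Eno3, Pvalb, Pygm and Tnnc2, where it called 22.5% of all genes with an adjusted p, and limma-voom called 0.186% of all.

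A list of 40 other skeletal muscle genes gave the same libraries as high. It summed to 460, 1966 and 2465 CPM in day 0 KO, 359 and 1778 in day 0 WT, 631, 451 and 246 in day 39 KO, and 658, 1612 and 507 in day 39 WT. Day 0 KO replicates 2 and 3, day 0 WT replicate 2 and day 39 WT replicate 2 were the 4 highest libraries for this list and for the 42 genes alike. Of the 40 genes, 27 reached 100 counts somewhere and 10 were at 0 throughout. Those with the highest mean CPM were Fhl1, a LIM protein also made outside muscle, with up to 4753 counts, and Apobec2, a muscle deaminase-family gene, with up to 2855. Of 14 tested genes, none passed in any of the 4 comparisons.

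The isoforms of slow and heart muscle were all but missing. Of 17 such genes, 13 had 0 counts in all 11 libraries and 14 never exceeded 3. Tnnc1, the slow and cardiac counterpart of Tnnc2, had 0 counts, as did Tnnt1, Myl2 and Myl3, each of which 65904340 counts limit to 0.0455 CPM. Myh7, the slow myosin heavy chain, had at most 4 counts and Tnni1 at most 3. The exceptions were Actc1, the cardiac actin, with 757 counts in day 39 KO replicate 1 and 683 in day 39 WT replicate 3, and Myh6, with 66 counts in day 39 KO replicate 3. Among 11 genes of muscle precursors and the nerve endplate, Pax7, Myf5, Myod1, Myog, Myf6, Chrnd and Chrng had 0 counts. Myh3, the embryonic myosin heavy chain, had at most 1 count in the 5 day 0 libraries, 1564, 3 and 5548 in day 39 KO, and 1495, 0 and 1640 in day 39 WT. It did not pass over time in WT (edgeR adjusted p = 0.414). Musk, the endplate kinase, had 524 counts in day 39 WT replicate 1 and at most 2 elsewhere.

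Genes of other tissues were set beside the muscle genes. The 8 genes of stratified (skin-type) epithelium summed to 1252, 8816 and 9794 CPM in day 0 KO, 730 and 6010 in day 0 WT, 654, 1153 and 831 in day 39 KO, and 1592, 1696 and 1156 in day 39 WT. Their level was thus high in 3 of the 4 libraries richest in muscle genes, and not in day 39 WT replicate 2. Krt1 had 595 to 40944 counts and Krt10 1 to 55976, Krt5 and Krt14 reached 35505 and 17221, and the basal factor Trp63 had 0 counts in all libraries. In all, 7 of the 8 reached 100 counts somewhere, and none of the 4 tested passed in any of the 4 comparisons. Its part in the muscle level was not tested.

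The 9 smooth muscle genes ran another way, at 150 to 426 CPM in day 0 KO, 185 and 751 in day 0 WT, 101 to 2216 in day 39 KO and 444 to 2007 in day 39 WT. Mylk had up to 3775 counts and Acta2 up to 2665, and none of the 7 tested genes passed. The 10 genes of intestinal epithelium stood at 292 to 1256 CPM in day 0 KO, 891 and 1382 in day 0 WT, 2798 to 6204 in day 39 KO and 1257 to 4248 in day 39 WT, led by Muc2 and Krt19, and none of the 10 passed. The 8 adipocyte genes reached 1541 CPM in day 0 KO replicate 2 and at most 391 in the others, led by Cfd and Adipoq. Lep had at most 9 counts, and Plin1, Adrb3 and Ucp1 never exceeded 3.

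The 11 genes of pancreatic acini were at 0 CPM in day 0 KO, 10.7 or less in day 0 WT, 759 to 1838 in day 39 KO and 69.0 to 205 in day 39 WT, with 8 of 11 at 0 throughout. Sycn, an acinar granule gene, had 7106, 7001 and 2631 counts in day 39 KO and 52, 1 and 871 in day 39 WT, and was the single list gene past the threshold, higher at day 39 in KO. Cela1, an elastase gene, had 2, 173 and 3 counts in day 39 KO and 623, 374 and 0 in day 39 WT. The red cell and Ly6 genes summed to 879 to 1269 CPM in day 0 KO, 1151 and 1152 in day 0 WT, 4801 to 5447 in day 39 KO and 525 to 2964 in day 39 WT, led by Hba-a1. The 14 macrophage genes stood at 56640, 16021 and 13235 CPM in day 0 KO, 36288 and 36675 in day 0 WT, 19083, 28314 and 24996 in day 39 KO, and 26760, 23650 and 35859 in day 39 WT. The libraries with the most muscle CPM, day 0 KO replicates 2 and 3, had the least macrophage CPM, and day 0 KO replicate 1 had the least muscle and the most macrophage CPM. That order did not extend to day 0 WT, where replicates 1 and 2 had 4864 and 17924 muscle CPM at 36288 and 36675 macrophage CPM. No macrophage gene passed in any of the 4 comparisons. The part of any of these lists in the muscle counts was not tested.

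**Figure D4:**
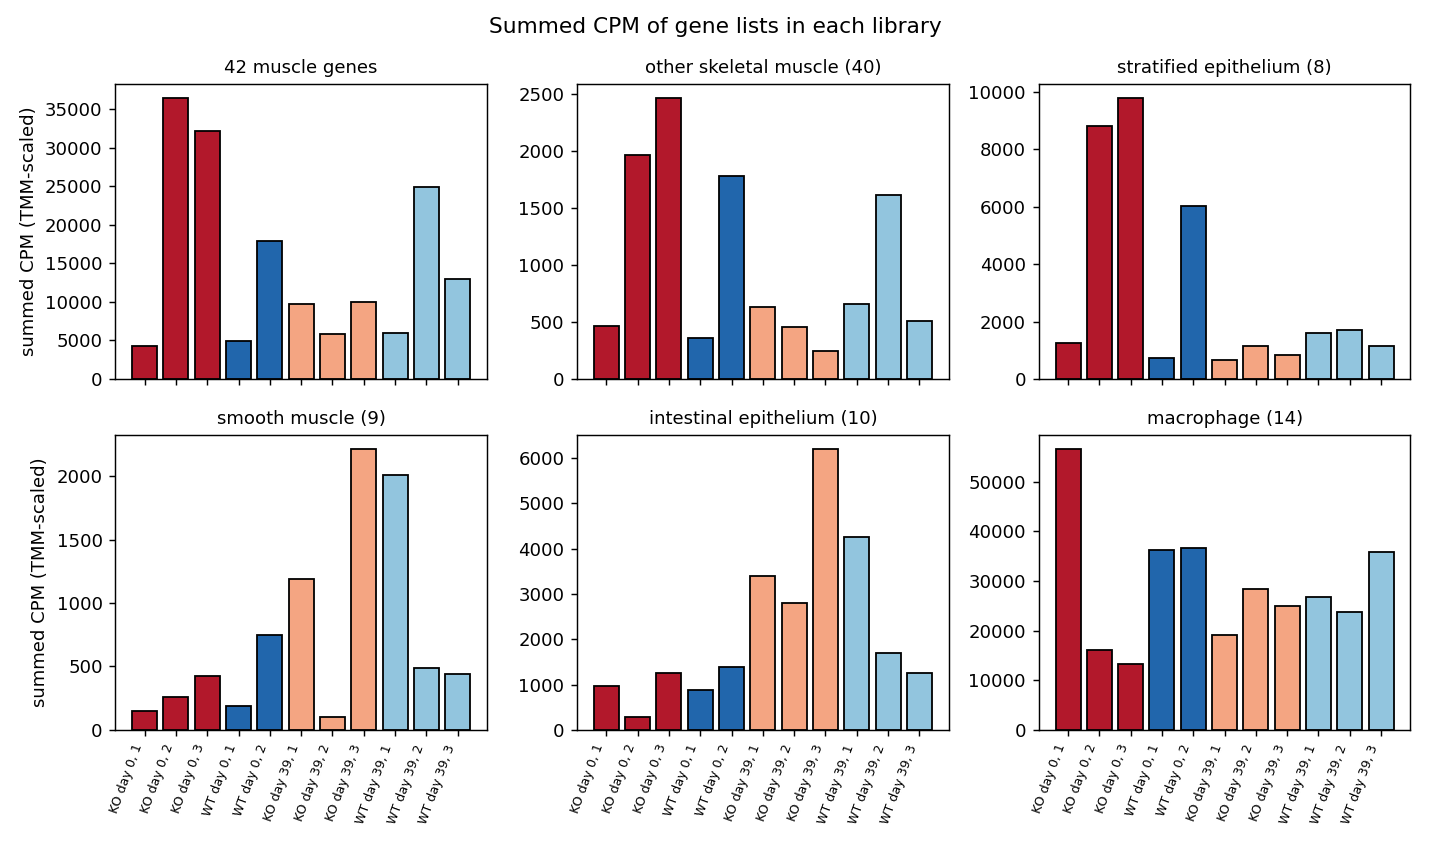
Summed CPM (y axis, TMM-scaled, each panel on its own scale from 0) of the 42 muscle genes and 5 gene lists in the 11 libraries (x axis), coloured by label group. Day 0 KO replicates 2 and 3 are high for muscle (36496 and 32164 CPM), other muscle and stratified epithelium and low for macrophage genes (16021 and 13235 CPM). Day 0 WT replicate 2 stands at 17924 CPM for muscle and 36675 CPM for macrophage genes.

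Shared sequence could blur single counts. In the last 500 bases of GENCODE M21 transcripts, 35 of the 42 genes had no stretch of 50 bases in common with a transcript of another gene, Tnnc2 and Pvalb among them. Stretches were shared by Myh1 (16.1% of its stretches), Myh4 (12.6%) and Myh2 (7.96%), with each other and further myosin genes, by Myl1 (15.1%) with a pseudogene, by Klhl41 (24.8%), by Acta1 (3.44%) with other genes that include Actb, the actin of most cells, and by Myom2 (0.446%). Counts of these 7 genes are therefore uncertain where reads were split between copies. Exons of 18 of the 42 overlap a gene on the opposite strand, such as Ube2c for Tnnc2 and Rabep2 for Atp2a1. The strand setting of the counting is not given in the sources used here, so reads of such pairs could not be told apart without it.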

How the data were processed

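RNA of sorted colon macrophages was extracted with Trizol and made into QuantSeq libraries, which read near the poly(A) end, per the labels' protocols. The authors deposited whole-number counts per gene symbol, 1 file per library. Bowtie2, edgeR and the human build hg19 are named without roles, per the submitters' processing notes, although the symbols are of mouse. The annotation, strand setting and use of molecular identifiers are not given in the sources used here, so floors and counts cover counting error only.

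Groups and replicate numbers came from the titles. Of 23282 entries, 6987 passed filterByExpr. Counts were fitted in edgeR 4.0.16 (R 4.3.3) with TMM scaling and robust quasi-likelihood, 1 coefficient per group over 11 libraries, with Benjamini-Hochberg adjustment and a threshold of 0.05, two-sided. SE was taken as the size of the log2 change over the root of its F statistic. CPM uses TMM-scaled sums over tested genes. The floor is 3 counts.

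The members and lists were chosen with earlier results of these data known. All 42 genes could be named. Fold changes are given for Tnnc2, Pvalb, the 6 genes with the highest mean CPM and any gene past the threshold; Tpm2, Eno3 and Myh3 were added after their values were seen. Alternatives were other scalings, filters and samples, DESeq2 1.42.0, limma-voom (limma 3.58.1) and each library left out. On simulated counts for KO against WT at day 0 (6987 genes, 200 changed 16-fold), edgeR recovered 200 of 200 with 210 calls at a dispersion of 0.1. It recovered 0 at a dispersion of 6, near that of the data, where DESeq2 recovered 33 with 512 calls.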

Additional observations from a re-analysis of the deposited data

Results flagged for a closer look

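Tnnc2 had genotype differences of opposite sign at the 2 days, of which the one at day 0 did not pass. The low day 39 KO values had chosen the gene, so what follows is a description. Every day 0 KO library was above every day 0 WT library, and every day 39 KO library was below every day 39 WT library. The day 39 part held under each of 4 scalings, and the day 0 part on the TMM scale alone. The difference between the genotype contrasts was -11.08 ± 2.53 (SE) on the log2 scale, and its adjusted p from edgeR was 0.0583, which did not pass. It passed under the size factors of DESeq2, when scaled by library size, by the DESeq2 test, and without day 0 KO replicate 1, day 39 KO replicate 1, day 39 KO replicate 3 or day 39 WT replicate 1.

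Eno3 had time differences of opposite sign in KO and WT, neither of which passed. Every KO library was lower at day 39 than at day 0 and every WT library higher. The WT part did not hold with upper-quartile scaling, where the groups overlapped. The log2 difference of the time contrasts was -9.25 ± 4.91 (SE), and its adjusted p from edgeR was 0.365, which did not pass, although the DESeq2 test did. Its day 0 WT counts were 0 and 4, so the fitted value depends on the prior count.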

How the results depend on the processing

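Of the 42 genes, 0 passed over time in WT under every alternative fitted. At day 0 the edgeR count of 0 became 4 with DESeq2 and 2 with limma-voom. The day 39 count of 2 became 0 with upper-quartile scaling, no filter, a minimum mean count of 10, limma-voom or the compared groups only, and 4 with DESeq2. It ran from 0 to 2 with single libraries left out. The KO time count of 2 became 0 with upper-quartile scaling or no filter, 7 with DESeq2 and 1 with the compared groups only, and ran from 1 to 3 with libraries left out. The interaction count of 0 became 1 under the size factors of DESeq2, 2 when scaled by library size and 4 by the DESeq2 test. It ran from 0 to 2, being 2 without day 0 KO replicate 1, day 39 KO replicate 3 or day 39 WT replicate 1, and 1 without day 39 KO replicate 1. The causes were not tested.

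With the replicate number as a block, 0 genes passed at day 39 and 1, Tnnc2, over time in KO, and no other count moved. Same-numbered libraries share only a number: 0 of 15 pairs correlated above 0.1 (-0.0156 to 0.0685), and 6 of 11 libraries correlated best with their own number. Numbers were taken from the titles; the file name of day 0 WT replicate 2 carries another number, 3, and a block with that number was not fitted.

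With upper-quartile scaling the summed level was 43198 CPM in day 0 WT and 18284 CPM in day 0 KO, so their order turned. That of day 39 KO was 5841 CPM without Tpm1, Tpm2 and Des, and 5175 CPM without Acta1, Myh4 and Ttn, a choice made after seeing the data. The overlap of groups under other scalings was also added after seeing the data.

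Of 224 alternative log2 fold changes, 190 kept their sign and 34 turned, none past the threshold. With upper-quartile scaling at day 0, Acta1 was at -0.39, Myh4 -0.073, Mylpf -1.47, Pvalb -0.47, Tnnt3 -0.55 and Tpm1 -1.62, and over time in WT Mylpf was at -2.12, Pvalb -1.27, Tnnc2 -0.23, Tnnt3 -1.72 and Ttn -1.86. Ttn at day 0 was 0.43 with limma-voom. Mylpf over time was -0.16 with DESeq2 size factors, -0.17 with no filter, -0.15 with a minimum mean count of 10 and -0.16 with the DESeq2 test. With single libraries left out, day 0 values ran from 1.19 to 2.85 for Acta1, 1.46 to 4.13 for Myh4, 0.98 to 12.18 for Pvalb, 2.01 to 2.90 for Tnnc2, 0.82 to 2.87 for Tnnt3, -0.036 to 4.09 for Mylpf, -0.10 to 1.83 for Tpm1 and -1.11 to 1.69 for Ttn. Over time in WT they ran from -1.05 to 0.61 for Acta1, 1.75 to 4.41 for Myh4, -1.08 to 3.05 for Mylpf, -2.32 to 10.75 for Pvalb, -0.37 to 1.77 for Tnnc2, -0.54 to 1.32 for Tnnt3, -1.99 to 0.38 for Tpm1 and -0.73 to 2.08 for Ttn. Where 1 day 0 WT library remained, it was assumed to vary like the other groups.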
